A study of Mus musculus with 48 samples.

Results

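The step from 4:00 p.m. to 8:00 p.m. within TAN mice was examined in bulk RNA-seq of subcutaneous white adipose tissue (sWAT), the inguinal fat depot under the skin. The compared libraries were all those that the count table names TAN at 8 PM, 4 in number, against all those named TAN at 4 PM, also 4, so that 8 of the 48 libraries of the series were used on the 2 sides. All animals were male C57BL/6 mice by the labels (C57BL/6J in the study's methods) with no transgene or deletion, 8 months old, fed regular chow for 6 months either ad-lib or as TAN, in which food was offered in a pair of windows of the dark period, 9 to 11 p.m. and 5 to 7 a.m., with the dark period running from 8 p.m. to 8 a.m. The series holds 4 libraries of each of the 2 diets at each of 6 time points. The labels number the libraries of a group and no source used here states that each came from a separate mouse, so that p-values measure the spread between these libraries. The design text of the series names a stromal vascular fraction and the study's methods name whole sWAT, and 0 of 8 adipocyte markers were at 0 on either side, with summed levels from 8357 to 64850 CPM, the read counts of a library scaled by TMM to a common size, in the 8 libraries.

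The clock time of these libraries has 2 readings. By the names in the count table and the sample labels, 4:00 p.m. and 8:00 p.m. are both in the long daytime fast that follows the morning meal, and 8:00 p.m. is its end at lights off. Lists of FPKM values per library that were published with the study give other times. Over 973 genes, each of the 8 libraries had the values that those lists place under its own animal name but at a time 12 h away, where the mean absolute log2 difference was no more than 5.43e-06, while any other listed library differed by 0.249 or more. By that second reading the step ran from 4:00 a.m., before the morning meal, to 8:00 a.m., after it, at lights on. The animals on each side are the same under both readings, so that every value holds for both, and the names of the count table are used throughout.

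As background, the molecular clock is a feedback loop in which CLOCK (or NPAS2) and ARNTL activate genes through E-box sequences, the PER and CRY proteins repress that activity, and the nuclear receptors REV-ERB and ROR act in opposite directions on Arntl. DBP, TEF, HLF and NFIL3 carry the rhythm on to output genes. In adipose tissue, fasting is known to lower lipid synthesis, and glucocorticoids, which rise daily before the active period, induce Tsc22d3 and Fkbp5. The inguinal depot encloses a lymph node, whose T cells, B cells and stroma are carried into a sample when it is not removed.

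Lymph node markers stood on both sides, and far higher in 3 of the 4 libraries at 8:00 p.m. The summed level of 11 T-cell markers was 21.7, 8.32, 192 and 9.10 CPM in 4 PM replicates 1 to 4 and 2641, 2730, 455 and 19.0 CPM in 8 PM replicates 1 to 4. The 10 B-cell markers summed to 29.5, 6.86, 248 and 16.4 CPM at 4:00 p.m. and to 911, 975, 743 and 31.1 CPM at 8:00 p.m. The 6 markers of lymph node stroma (Glycam1, Ccl21a, Ccl19, Cxcl13, Madcam1 and Chst4) summed to 14.2, 6.16, 56.5 and 7.03 CPM at 4:00 p.m. and to 358, 289, 164 and 20.9 CPM at 8:00 p.m. Thus 8 PM replicates 1, 2 and 3 stood above every 4 PM library in all 3 lists, 4 PM replicate 3 stood above its own group, and 8 PM replicate 4 lay within the range of the 4 PM libraries. The means of T-cell, B-cell and stromal markers differed with p = 0.0857, 0.0571 and 0.0571 by the exact permutation test (two-sided, 4 against 4, with 0.0286 the smallest p it can give). A pair of libraries had a makeup of their own, since T-cell markers were 2.90 and 2.80 times the B-cell markers in 8 PM replicates 1 and 2, against 0.556 to 1.21 in the other 6, and their T-cell sums lay above the highest of the remaining 40 libraries of the series, 1246 CPM. The counts on T-cell receptor genes took 0.164% and 0.170% of these 2 libraries, 0.0277% of 8 PM replicate 3 and at most 0.0129% of the other 5. In the remaining 40 libraries that share was at most 0.0742%. Immunoglobulin genes took 0.172% and 0.1775% of 8 PM replicates 1 and 2, against a median of 0.256% in the remaining 40. Whether the T-cell RNA of these 2 libraries came from the lymph node was not tested. The 6 thymocyte and thymus genes summed to 14.3, 12.7, 2.04 and 0.451 CPM at 8:00 p.m. and to at most 0.463 CPM at 4:00 p.m. (exact permutation p = 0.0571), with Rag2, Ptcra, Psmb11 and Foxn1 at 0 in all 8 PM libraries and 1 of the 3 tested called higher. In the remaining 40 libraries this sum ran from 0 to 19.8 CPM, so that it did not set 8 PM replicates 1 and 2 apart. No T-cell, B-cell or stromal marker was at 0 on the 8:00 p.m. side, and Chst4 alone was at 0 on the 4:00 p.m. side. Over the remaining 40 libraries of the series the medians of the T-cell, B-cell and stromal sums were 547, 1002 and 175 CPM. All 4 PM libraries and 8 PM replicates 3 and 4 lay below each of these medians. In B-cell markers 8 PM replicates 1 and 2 did too.

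**Figure D1:**
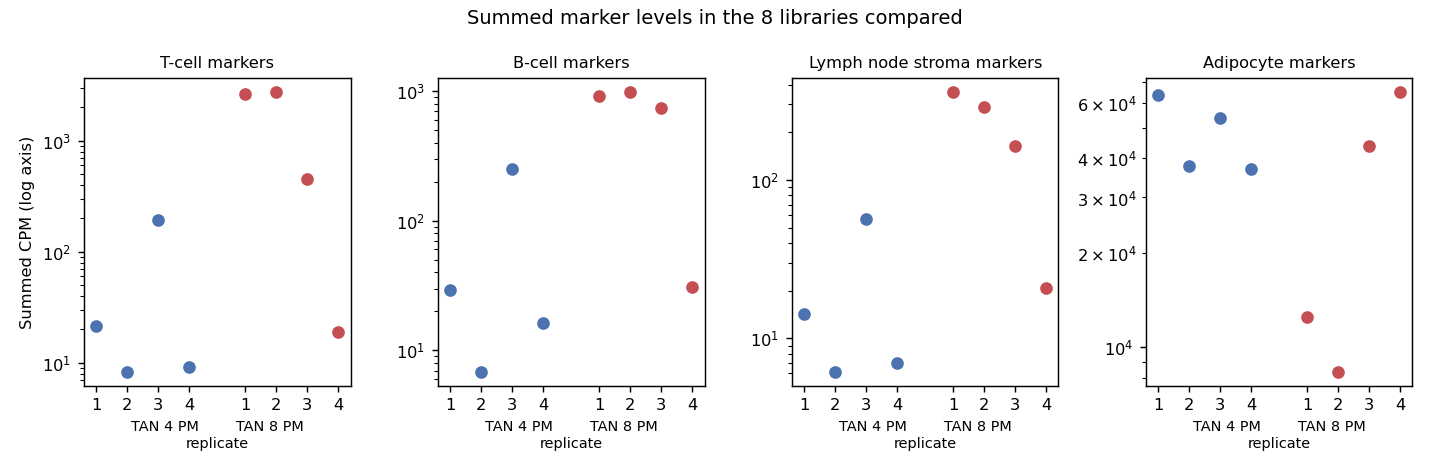
Summed CPM (log axis) of the T-cell, B-cell, lymph node stroma and adipocyte markers in each of the 8 libraries, with replicates 1 to 4 of TAN 4 PM in blue and of TAN 8 PM in red. In the first 3 panels 8 PM replicates 1 to 3 lie above every 4 PM library, and in the last 8 PM replicates 1 and 2 lie lowest, at 12500 and 8357 CPM.

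Adipocyte markers were lowest in the 2 libraries richest in T-cell markers. They summed to 63850, 37910, 53820 and 37010 CPM at 4:00 p.m. and to 12500, 8357, 43680 and 64850 CPM at 8:00 p.m., so that 8 PM replicates 1 and 2 were the lowest of the 8 and 8 PM replicate 4 the highest (exact permutation p = 0.371, two-sided). In bulk tissue, fewer cells of a type and less RNA per cell cannot be told apart. Skeletal muscle markers were highest in 8 PM replicate 3, at 658 CPM, against 35.3 to 177 CPM in the other 7 libraries. Total counts were 19213494 to 25440243 per library, the mitochondrially encoded share 4.40% to 8.52%, and no pair of libraries was identical. In the lymph node markers 8 PM replicates 1 to 3 stood above every 4 PM library. The main results are therefore also given without them and with a covariate for the lymphocyte markers. A gene given below by its value with all libraries alone was not called without 8 PM replicates 1 and 2, and of the members of the gene lists edgeR called Cry1 and Tsc22d3 and no other in that setting.

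In the fit of all 48 libraries, 1911 genes were higher at 8:00 p.m. (9.57% of the 19977 tested) and 1461 were lower (7.31%), where a call by edgeR's quasi-likelihood test needed a Benjamini-Hochberg adjusted p under 0.05 together with a log2 fold change past 1. With p unadjusted, 2690 (13.5%) and 2455 (12.3%) met these limits. The calls, 3372 in all (16.9%), depended on which libraries were in the fit. Without 8 PM replicates 1 and 2, 3 genes were higher and 7 lower, and 169 of the 3372 changed sign. Without 8 PM replicates 1, 2 and 3, which leaves 1 library at 8:00 p.m. that is taken to vary like the other groups, 2 genes were higher and 3 lower, and 1127 of the 3372 changed sign. With the lymphocyte markers as a covariate, 111 genes were higher and 363 lower, and 400 of the main calls (11.9% of them, 84.4% of the calls with the covariate) stood in both. When the 8 libraries were fitted alone, edgeR called 0 of 15196 genes, with the lowest adjusted p at 0.197, while with p unadjusted 1527 genes met the limits upward and 624 downward, and the median SE of a fold change was 0.489 against 0.369 for the same genes in the shared fit. Single libraries also moved these counts: 750 genes were higher and 508 lower without 8 PM replicate 1, 637 and 475 without 8 PM replicate 2, 2807 and 3250 without 8 PM replicate 4, 1212 and 1242 without 4 PM replicate 1, 1086 and 843 without 4 PM replicate 2, and 877 and 723 without 4 PM replicate 4. The counts were 2124 and 1526 without 8 PM replicate 3, which is rich in lymph node markers, and 2244 and 1655 without 4 PM replicate 3. DESeq2 and limma voom, run on all 48 libraries, called 2529 and 1020 genes higher and 1764 and 2454 lower.

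**Figure D2:**
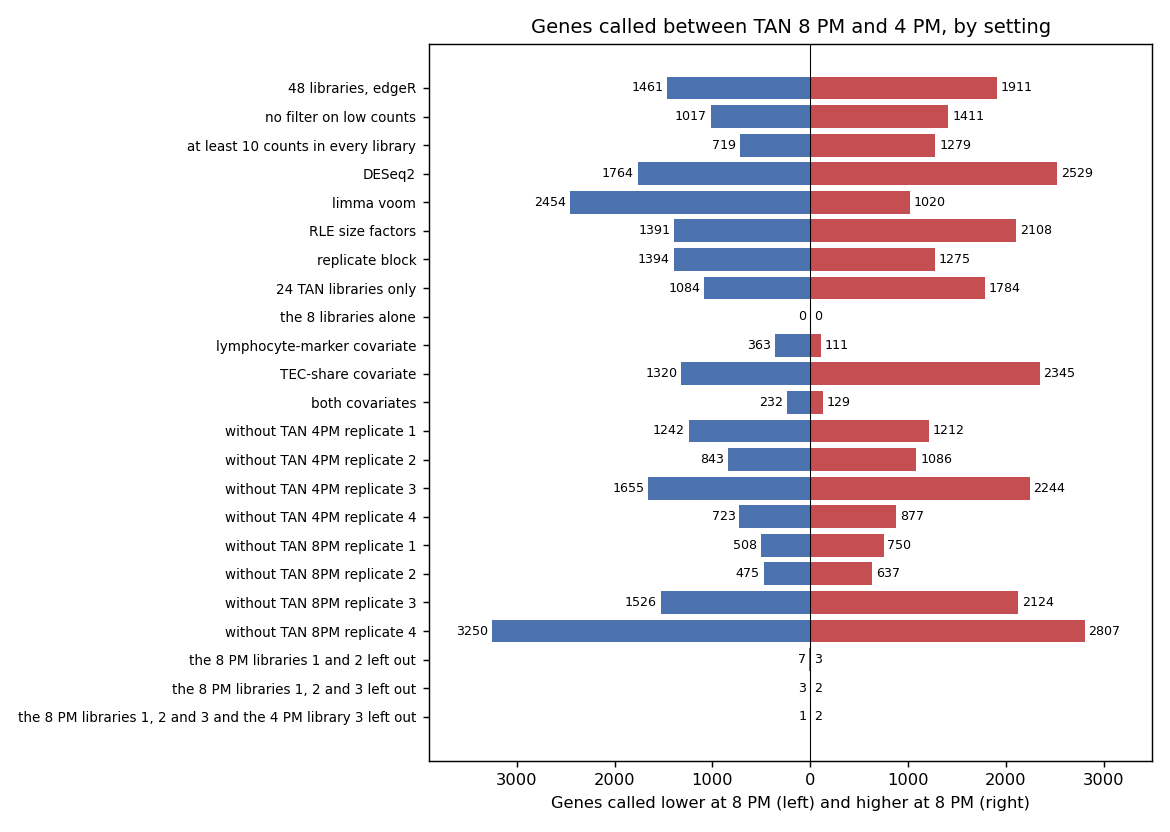
Number of genes called higher (right, red) and lower (left, blue) at 8:00 p.m. than at 4:00 p.m. in TAN mice, for the main fit (top) and each other setting. The bars shrink to 3 and 7 genes when 8 PM replicates 1 and 2 are left out and to 0 when the 8 libraries are fitted alone, and they are longest, 2807 and 3250, without 8 PM replicate 4.

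Of the called genes, 199 higher and 458 lower ones had no overlap between the 4 libraries of each side, against 429 (2.15%) and 790 (3.95%) of all 19977 genes tested. Of those, 152 and 347 were protein-coding, had a gene symbol and had 10 counts or more in every library of the higher side, and the genes with the lowest p among them are described next. The call with the lowest p was a core clock gene.

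Cry1, which encodes a repressor of CLOCK and ARNTL, was higher in all 4 libraries at 8:00 p.m. (ENSMUSG00000020038, chromosome 10, 85131700 to 85185064, GRCm38). Its level was 6.10, 11.1, 7.77 and 10.99 CPM at 4:00 p.m. and 45.1, 28.4, 28.0 and 41.5 CPM at 8:00 p.m., on average 9.0 ± 2.48 and 35.7 ± 8.84 CPM (SD, n = 4 each). The lowest 8 PM library thus exceeded the highest 4 PM library. The log2 fold change was 1.99 (SE 0.27, adjusted p = 7.14e-05), and it was 1.96 with the lymphocyte covariate (adjusted p = 0.000205), 1.95 without 8 PM replicates 1 and 2 (adjusted p = 0.00226) and 2.23 without 8 PM replicates 1 to 3 (adjusted p = 0.00467). Cry1 and Tsc22d3 were the called genes that stood in all of these settings. Each of these settings took the spread from all groups of the series. When edgeR fitted the 8 libraries alone, neither gene was called, and the lowest adjusted p of any gene was 0.197.

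Of the activators, Clock and Npas2 were lower and Arntl was low on both sides. Clock fell from 112, 78.8, 52.0 and 93.2 CPM to 30.3, 22.7, 25.6 and 40.6 CPM, with no overlap, by 1.5 on the log2 scale (SE 0.28, adjusted p = 0.00145). The fold change of Clock was -1.07 with the lymphocyte covariate (adjusted p = 0.0133) and -1.35 without 8 PM replicates 1 and 2 (adjusted p = 0.112). Npas2, the partner of ARNTL that can stand in for CLOCK, had 0 counts in all 4 libraries at 8:00 p.m. and 1.04, 0.54, 0 and 0 CPM at 4:00 p.m., which makes it at least 10.1-fold lower against a floor of 3 counts over the 4 libraries (adjusted p = 0.00523). Arntl had 7.57, 3.46, 3.24 and 2.40 CPM at 4:00 p.m. and 5.77, 7.14, 2.94 and 1.47 CPM at 8:00 p.m., and the sides overlapped (log2 fold change 0.06, adjusted p = 0.93).

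Among the repressors, Nr1d1, which encodes REV-ERB alpha, showed the next clear difference. Its level was 68.0, 243, 103 and 137 CPM at 4:00 p.m. and 17.0, 13.1, 44.5 and 54.3 CPM at 8:00 p.m., so that all 4 PM libraries lay above all 8 PM libraries, including 8 PM replicate 4 with its low lymphocyte level. Nr1d1 fell by 2.10 on the log2 scale (SE 0.54, adjusted p = 0.00761), and its fold change was -1.70 with the covariate (adjusted p = 0.0572), -1.48 without 8 PM replicates 1 and 2 (adjusted p = 0.305) and -1.32 without replicates 1 to 3 (adjusted p = 0.897). Cry2, the paralog of Cry1, stood at 34.8, 71.6, 49.7 and 65.8 CPM and then at 10.5, 9.14, 34.7 and 46.1 CPM. Its fall of 1.14 on the log2 scale (adjusted p = 0.0227) came with overlapping sides, and its fold change was -0.46 without 8 PM replicates 1 and 2 (adjusted p = 0.55). Per1, Per2, Per3 and Nr1d2 did not pass the test, with log2 fold changes of 0.20, 0.50, -1.27 and -0.62 and adjusted p of 0.811, 0.552, 0.0788 and 0.109.

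Rora, an activator of Arntl, was at 110, 114, 48.7 and 131 CPM and then at 29.0, 17.4, 41.9 and 99.3 CPM. It was called lower (log2 fold change -1.10, adjusted p = 0.0205), with overlapping sides and a fold change of -0.51 without 8 PM replicates 1 and 2 (adjusted p = 0.496). The output factors Dbp, Tef and Hlf had log2 fold changes of -0.27, -0.23 and -0.28 and did not pass, and in each of them 8 PM replicates 1 and 2 were the lowest of the 8 libraries while 8 PM replicate 4 was the highest. Nfil3, which opposes those 3 factors, had a log2 fold change of 0.99 (adjusted p = 0.0822). In the clock list of 19 genes, 1 was higher (5.26%) and 5 were lower (26.3%), beside 9.57% and 7.31% of all genes tested, and the median log2 fold change was -0.27 against -0.07 over all genes. The median of the list was -0.07 with the covariate, 0.33 without 8 PM replicates 1 and 2 and 0.52 without replicates 1 to 3. Per length, in the deposited group means of FPKM, Nr1d1 was at 43.3 and 10.5 FPKM at 4:00 p.m. and 8:00 p.m., Dbp at 49.8 and 42.5, Cry1 at 2.62 and 10.9 and Clock at 6.02 and 2.19.

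**Figure D3:**
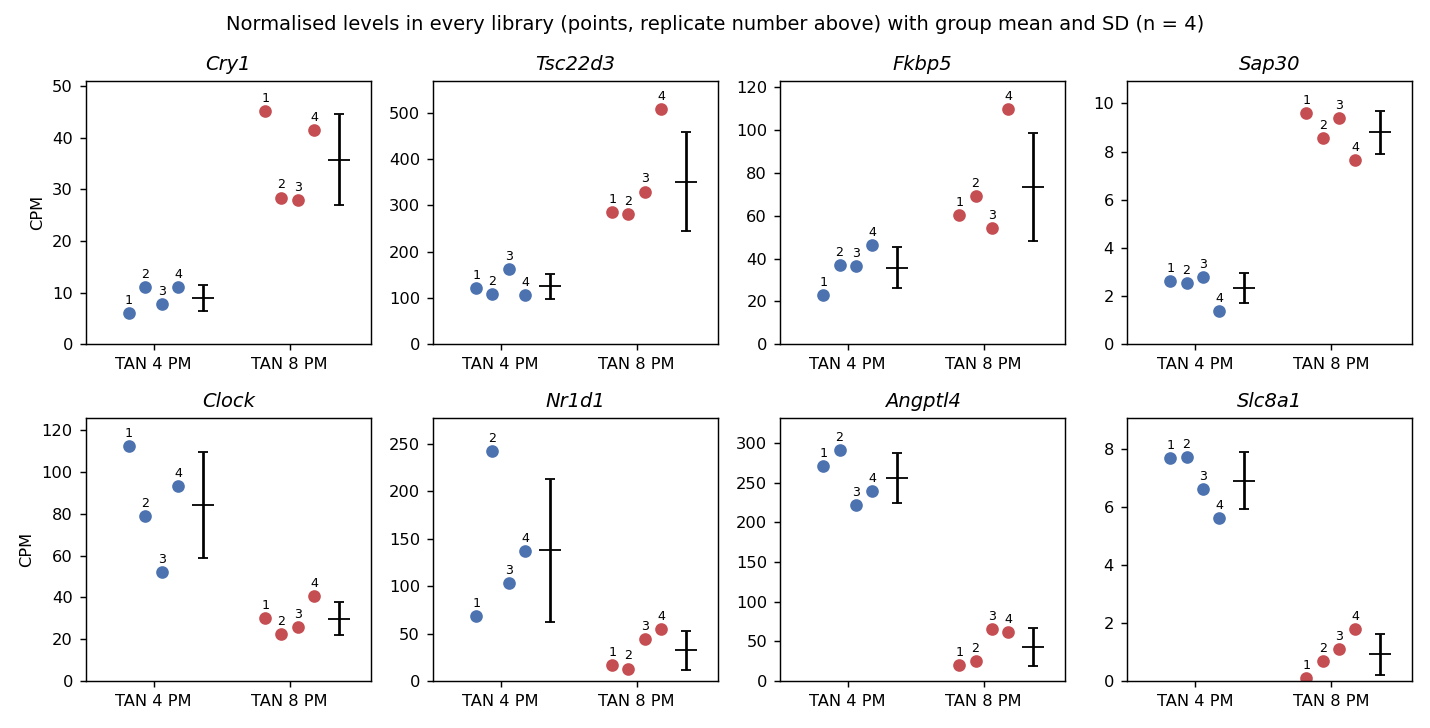
CPM of 8 genes in every library (points, replicate number above each) with the group mean and SD (n = 4) beside them, TAN 4 PM in blue and TAN 8 PM in red. In all 8 genes the sides do not overlap, which was a condition in choosing the genes with the lowest p. Cry1, Tsc22d3, Fkbp5 and Sap30 are higher at 8:00 p.m., and Clock, Nr1d1, Angptl4 and Slc8a1 are lower.

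The sequence before the start of 4 of these genes is shown because E-box letters are the known sites of CLOCK and ARNTL, and because the clock genes Cry1, Nr1d1 and Cry2 and the glucocorticoid target Fkbp5 were called in opposite directions. The windows are the 250 bases before the RefSeq start on GRCm38.p6, all on the minus strand and written 5′ to 3′. They lie at chr10:85185055-85185304 for Cry1, chr11:98775378-98775627 for Nr1d1, chr2:92434070-92434319 for Cry2 and chr17:28486150-28486399 for Fkbp5. Capitals mark an E-box (CACGTG) or an E'-box (CACGTT, or AACGTG on the other strand).
Cry1: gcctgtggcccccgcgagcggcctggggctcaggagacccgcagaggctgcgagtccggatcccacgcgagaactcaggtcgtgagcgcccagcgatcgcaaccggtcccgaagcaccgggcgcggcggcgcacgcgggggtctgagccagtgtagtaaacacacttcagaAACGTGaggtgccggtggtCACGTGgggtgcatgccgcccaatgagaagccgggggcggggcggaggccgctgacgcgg
Nr1d1: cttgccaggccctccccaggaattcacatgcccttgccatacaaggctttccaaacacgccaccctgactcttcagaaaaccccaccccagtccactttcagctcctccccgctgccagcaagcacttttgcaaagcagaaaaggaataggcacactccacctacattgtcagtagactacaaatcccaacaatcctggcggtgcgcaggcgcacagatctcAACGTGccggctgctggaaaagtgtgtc
Cry2: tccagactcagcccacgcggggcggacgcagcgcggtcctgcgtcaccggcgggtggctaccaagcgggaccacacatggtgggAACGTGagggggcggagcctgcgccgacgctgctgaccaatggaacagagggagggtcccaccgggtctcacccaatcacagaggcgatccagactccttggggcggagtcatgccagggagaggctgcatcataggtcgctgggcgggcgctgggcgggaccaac
Fkbp5: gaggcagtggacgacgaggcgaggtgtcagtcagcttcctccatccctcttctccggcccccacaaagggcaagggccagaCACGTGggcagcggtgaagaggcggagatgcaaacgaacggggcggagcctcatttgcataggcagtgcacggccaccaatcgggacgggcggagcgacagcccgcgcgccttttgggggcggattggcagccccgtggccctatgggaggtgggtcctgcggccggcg
In Cry1 the E-box began 60 bases and the E'-box 79 bases before the start. The E'-box began 28 bases before the start in Nr1d1 and 166 in Cry2, and the E-box began 169 bases before the start in Fkbp5. Of all 32851 RefSeq windows of that length, 6.02% held an E-box and 3.85% an E'-box on either strand. Windows of other called clock and glucocorticoid genes, Tsc22d3 among them, are not shown. The 4 windows therefore cannot be read as a share to set against those of all windows. The D-box (TTATGTAA) and the letters AGGTCA and AGAACA, the cores of the ROR and glucocorticoid receptor elements, were also searched on both strands and were not in these 4 windows, and 0.819%, 14.0% and 16.1% of all windows held them.

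Over the day, the clock genes of TAN mice showed which part of their cycle the step covers. In the order of the names from 8 PM through 12 AM, 4 AM, 8 AM and 12 PM to 4 PM, mean Cry1 was 35.7, 48.1, 30.3, 42.4, 12.8 and 9.0 CPM, so that the step began at its lowest group and ended among the 3 highest. Mean Nr1d1 in the same order was 32.2, 6.71, 4.05, 12.1, 75.9 and 138 CPM, and the step began at its highest group. Mean Arntl was 4.33, 20.8, 25.6, 46.0, 19.0 and 4.17 CPM, with both sides of the step at its low point. Of the 19 clock genes, 9 had their highest TAN mean at 4 PM and 3 at 8 PM. As background, Nr1d1 and Dbp transcripts are known to be high late in the light period in mouse peripheral tissues and Arntl transcripts around the turn from dark to light; which reading of the names holds was not tested here.

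**Figure D4:**
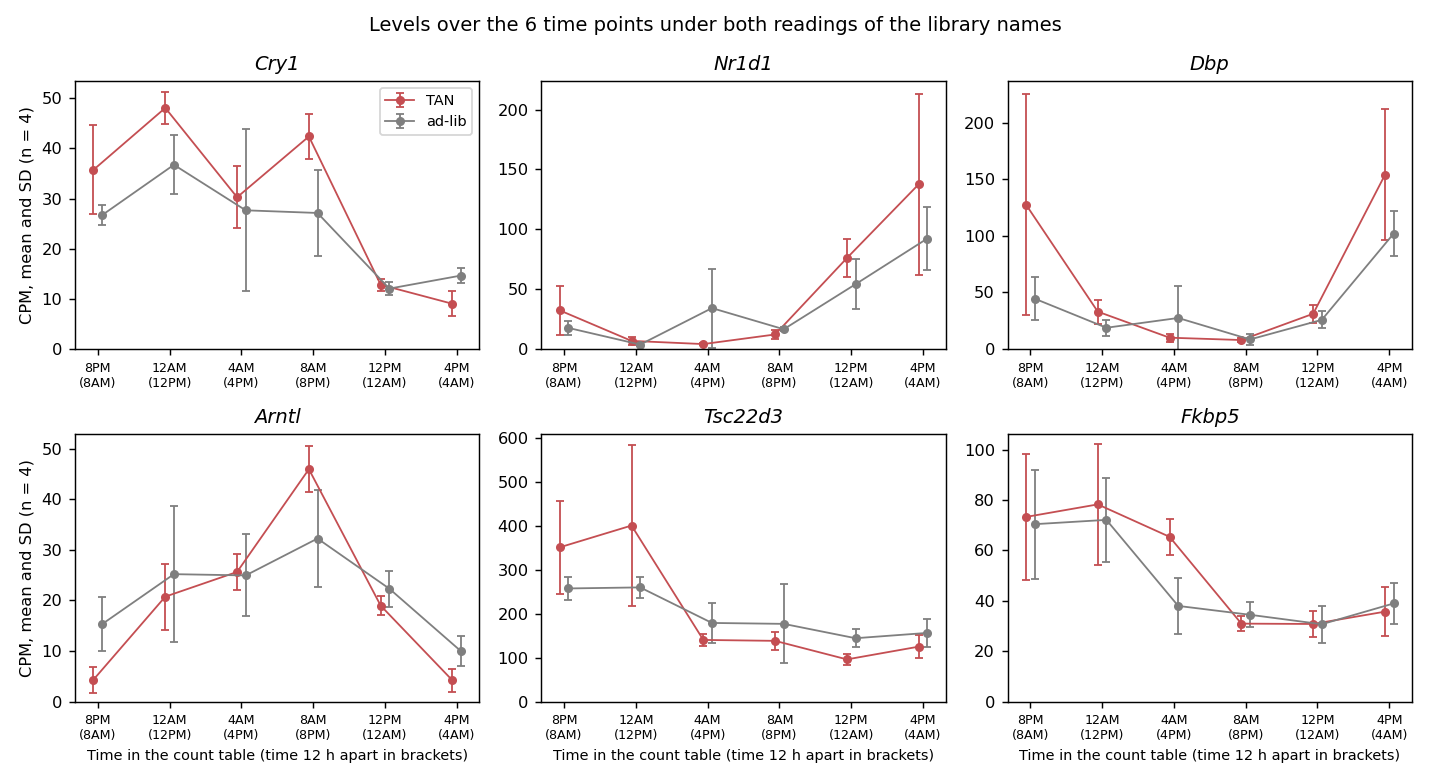
Mean CPM and SD (n = 4) of 6 genes at the 6 time points in TAN (red) and ad-lib (grey) mice, with the count-table time on the horizontal axis and the time 12 h apart in brackets. Nr1d1 is highest at the group named 4 PM, at 138 CPM in TAN mice, and Arntl is near its lowest in both TAN groups of the step, at 4.17 and 4.33 CPM.

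Glucocorticoid targets contained the other gene that was called in the same 4 settings as Cry1, though neither was called with the 8 libraries alone. Tsc22d3, which encodes the anti-inflammatory protein GILZ (ENSMUSG00000031431, chromosome X, 140539528 to 140600659), was at 122, 108, 163 and 107 CPM at 4:00 p.m. and at 286, 282, 330 and 507 CPM at 8:00 p.m. All 8 PM libraries were above all 4 PM libraries. The highest was 8 PM replicate 4, the library with the lowest lymph node marker sums on that side. The log2 fold change was 1.49 (SE 0.26, adjusted p = 9e-04), and it was 1.65 with the lymphocyte covariate (adjusted p = 0.000497), 1.74 without 8 PM replicates 1 and 2 (adjusted p = 0.00457) and 2.04 without replicates 1 to 3 (adjusted p = 0.00945).

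Fkbp5, a co-chaperone of the glucocorticoid receptor, was at 22.9, 37.0, 36.6 and 46.2 CPM and then at 60.1, 69.1, 54.0 and 110 CPM, again without overlap. It rose by a log2 fold change of 1.04 (SE 0.25, adjusted p = 0.00553), which was 1.2 without 8 PM replicates 1 and 2 (adjusted p = 0.0871) and 1.64 without replicates 1 to 3 (adjusted p = 0.0775). Angptl4, a fasting-induced inhibitor of lipoprotein lipase that glucocorticoids also induce, went the other way. It was at 271, 291, 221 and 239 CPM at 4:00 p.m. and at 19.9, 24.7, 65.9 and 61.7 CPM at 8:00 p.m., with the highest 8 PM value below the lowest 4 PM value. Angptl4 fell by 2.57 on the log2 scale (SE 0.43, adjusted p = 0.000717), and its fold change was -2.12 with the covariate (adjusted p = 0.00264), -2.00 without 8 PM replicates 1 and 2 (adjusted p = 0.0961) and -2.03 without replicates 1 to 3 (adjusted p = 0.883). Nr3c1, the receptor itself, was just inside the fold threshold and not called (log2 fold change -1.0, adjusted p = 0.00472). Of 16 measured glucocorticoid genes 2 were higher (12.5%) and 2 lower (12.5%), beside 9.57% and 7.31% of all genes, with a median log2 fold change of -0.38 that was 0.04 without 8 PM replicates 1 and 2.

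The other genes with the lowest p that rose follow. Mitd1, which takes part in cell division, was at 8.67, 9.46, 11.2 and 7.87 CPM and then at 38.2, 39.7, 24.95 and 16.7 CPM. It rose by a log2 fold change of 1.68 (SE 0.24, adjusted p = 0.000131), with the largest values in the 2 libraries richest in T-cell markers and a fold change of 1.16 without them (adjusted p = 0.0731). Sap30, a subunit of the SIN3 histone deacetylase complex, was at 2.62, 2.54, 2.78 and 1.40 CPM and then at 9.62, 8.54, 9.38 and 7.66 CPM. The highest 4 PM value was in replicate 3 and the lowest 8 PM value in replicate 4. The log2 fold change of Sap30 was 1.91 (SE 0.32, adjusted p = 0.000719), and 1.65 with the lymphocyte covariate (adjusted p = 0.00565). It was 1.86 without 8 PM replicates 1 and 2 (adjusted p = 0.0312) and 1.74 without replicates 1 to 3. Ctps, which makes CTP, and the tRNA-modifying enzymes Yrdc and Trmt61a had log2 fold changes of 1.33, 1.28 and 1.57, and of 1.01, 0.85 and 1.3 without 8 PM replicates 1 and 2, where none of the 3 was called (adjusted p 0.0871 to 0.112). Abracl and Ankrd37 completed the set, at log2 fold changes of 2.37 and 4.98, and in both 8 PM replicates 1 to 3 were the highest.

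The other genes with the lowest p that fell follow. Slc8a1, a sodium-calcium exchanger, was at 7.69, 7.73, 6.62 and 5.64 CPM and then at 0.10, 0.68, 1.09 and 1.80 CPM, and fell by 2.91 on the log2 scale (SE 0.50, adjusted p = 0.000836). Ufl1, the ligase of the ubiquitin-like UFM1, and Psmd1, a proteasome subunit, fell by 1.3 and 1.26, and of the 31 proteasome genes 1 was lower (3.23%, beside 7.31% of all genes). Mia2, needed for the export of large cargo from the endoplasmic reticulum, Ap4m1, an adaptor subunit of the trans-Golgi, and the protocadherin Pcdh18 fell by 1.27, 1.26 and 2.09. These 6 genes were chosen among those whose sides did not overlap. Each fold change was smaller without 8 PM replicates 1 and 2, between -0.84 and -2.26, with adjusted p from 0.0871 to 0.139. Pcdhgb7 had 0 counts in all 4 libraries at 8:00 p.m. and 0.86, 1.78, 2.45 and 1.005 CPM at 4:00 p.m., at least 44.2-fold lower against 3 counts over the 4 libraries, but the protocadherin gamma genes share exons, which makes the count of 1 member uncertain.

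A different set of lower genes stood out once 8 PM replicates 1 and 2 were left out, and it was named after these values were seen. Xrcc3, a DNA repair gene, was at 7.87, 9.40, 9.12 and 8.59 CPM and then at 4.30, 2.65, 1.23 and 2.25 CPM. The log2 fold change of Xrcc3 was -1.74 in the main fit and -2.33 without 8 PM replicates 1 and 2 (adjusted p = 0.00195 and 0.0119). The splicing-related gene Cwf19l2 and the zinc finger gene Zfp507 had main fold changes of -1.06 and -1.67 and fold changes of -1.33 and -2.31 in that setting (adjusted p = 0.0212 and 0.0446). With Cry1, Tsc22d3, Sap30 and 1 gene that is not reported here, these 3 made up the 7 called genes shared between the main fit and the fit without 8 PM replicates 1 and 2, which are 0.208% of the main calls and 7 of the 10 calls of that setting.

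The largest fold changes lay in genes that were near 0 on one side. Among the 12 highest, Osm, a cytokine of immune cells, was at 0, 0.32, 0 and 0 CPM and then at 16.9, 9.10, 2.32 and 0.68 CPM (log2 fold change 6.38, adjusted p = 0.00828). Ccl21a, the chemokine that guides T cells into the lymph node, was at 0, 0, 3.33 and 0.34 CPM and then at 192, 88.4, 8.05 and 5.13 CPM, and its near-identical copies make its counts uncertain. Epcam, an epithelial adhesion gene, and the cell-cycle genes Ccnb2, Nuf2 and Plk1 had log2 fold changes of 5.22, 4.71, 4.63 and 3.79, and Dtx1, a regulator of Notch signalling in lymphocytes, had 5.96. In Osm, Ccl21a and Dtx1 the highest libraries were 8 PM replicates 1 and 2, and replicate 4 was the lowest of its group. Among the 12 lowest, Arhgef16 and Mmp13, a collagenase, had 0 counts in all 8 PM libraries and were at least 49.0-fold and 24.3-fold lower, from levels of 1.40 to 2.38 and 0.78 to 0.97 CPM. The calcium sensor gene Hpcal4, Masp1 of the lectin complement pathway and the kinase gene Map3k15 had log2 fold changes of -4.61, -4.06 and -3.75 from levels of 0.73 to 3.46 CPM.

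Genes of lipid synthesis were lower at 8:00 p.m. with all libraries, and 2 of the 8 PM libraries were also low in adipocyte markers. The 14 genes of de novo lipogenesis, which turns citrate into fatty acids, summed to 64870, 54870, 40870 and 71080 CPM at 4:00 p.m. and to 7161, 4228, 28060 and 49810 CPM at 8:00 p.m. (exact permutation p = 0.0571, two-sided), with 8 PM replicates 1 and 2 lowest and replicate 4 within the 4 PM range. Divided by the adipocyte marker sum of the same library, the ratio was 1.02, 1.45, 0.759 and 1.92 at 4:00 p.m. and 0.573, 0.506, 0.642 and 0.768 at 8:00 p.m., so that 8 PM replicate 4 lay just above 4 PM replicate 3 and the sides were otherwise apart. Of the further lists given this ratio, only the collagen and matrix genes had sides fully apart (0.0962 to 0.198, then 0.0706 to 0.0867). Mean ratios at 4:00 p.m. and 8:00 p.m. were 0.856 and 0.659 for triglyceride synthesis, and 0.231 and 0.205 for lipolysis. They were 0.1365 and 0.1425 for fatty acid oxidation, and the sides of these lists overlapped. Such a ratio allows for adipocyte markers alone. Adipose progenitor markers averaged 2475 CPM at 4:00 p.m. and 1375 CPM at 8:00 p.m. Whether the matrix genes stay apart relative to progenitor markers was not tested. Of the 14 genes 7 were lower (50.0%) and 0 higher, beside 7.31% and 9.57% of all genes, with a median log2 fold change of -1.45. That median was -0.88 with the covariate, -0.67 without 8 PM replicates 1 and 2 and -0.33 without replicates 1 to 3, and in each of these 3 settings edgeR called 0 of the 14, with 4, 5 and 0 of them lower and none higher with p unadjusted. In the main setting DESeq2 and limma voom each called 8 lower and 0 higher, and 9 and 0 met the limits with p unadjusted.

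Acaca, acetyl-CoA carboxylase and the committed step of the pathway, was at 749, 1539, 374 and 2999 CPM and then at 143, 122, 226 and 503 CPM. It fell by 2.51 on the log2 scale (SE 0.60, adjusted p = 0.0057), with 8 PM replicate 4 above 4 PM replicate 3, and its fold change was -1.96 without 8 PM replicates 1 and 2 (adjusted p = 0.259). Scd2, a fatty acid desaturase, was at 459, 528, 285 and 794 CPM and then at 137, 143, 198 and 280 CPM, without overlap, and fell by 1.44 (adjusted p = 0.00714), with -1.11 without 8 PM replicates 1 and 2 (adjusted p = 0.273). Acly, which makes cytosolic acetyl-CoA, and the elongase Elovl6 fell by 2.21 and 2.41 with overlapping sides, and their fold changes were -1.58 and -1.73 in that setting (adjusted p = 0.272 and 0.319). The NADPH-making enzymes of the pentose phosphate route followed, with G6pdx and Pgd at log2 fold changes of -1.58 and -1.46, and of -0.935 and -0.89 without 8 PM replicates 1 and 2 (adjusted p = 0.259 and 0.322), while Rpia of the same route rose by 1.12 (adjusted p = 0.00361). Of the 10 genes of that list 4 were lower and 1 higher, beside 7.31% and 9.57% of all genes, against 1 and 1 with the covariate.

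Counts of called genes of lipid uptake, storage and oxidation differed between the tools. Lpl, the lipoprotein lipase that Angptl4 inhibits, had a log2 fold change of -2.11 (adjusted p = 0.0142) that was -1.64 without 8 PM replicates 1 and 2 (adjusted p = 0.325). Of 15 genes of triglyceride synthesis 2 were lower, of 14 lipolysis genes 1 was lower (the adrenergic receptor Adrb3, log2 fold change -1.37) and 1 higher, and of 19 fatty acid oxidation genes 2 were lower, among them Hadha (-1.23). Without 8 PM replicates 1 and 2, Adrb3 and Hadha had fold changes of -0.69 and -0.96 (adjusted p = 0.448 and 0.206). Those shares of 13.3%, 7.14% and 10.5% lower stood beside 7.31% of all genes, and limma voom called 8, 8 and 6 members of the 3 lists lower. The medians of -0.72, -0.85 and -0.62 became 0.26, 0.01 and 0.14 without 8 PM replicates 1 to 3, a change of sign in all 3 lists. Pck1, the enzyme of glyceroneogenesis, was at 1857, 2017, 1150 and 2528 CPM and then at 223, 153, 879 and 730 CPM, and it fell by 1.93 on the log2 scale (adjusted p = 0.00678), with a fold change of -1.23 without 8 PM replicates 1 and 2 (adjusted p = 0.297). The insulin signalling genes Insr and Irs1 fell by 1.34 and 2.30, with -1.04 and -1.40 without 8 PM replicates 1 and 2 (adjusted p = 0.298 and 0.227), and Txnip, an inhibitor of glucose uptake, fell by 1.27, with -0.94 without 8 PM replicates 1 and 2 (adjusted p = 0.249). Of 25 cholesterol synthesis genes 2 were higher, among them Mvd (1.17), and 3 lower, among them Nsdhl (-1.50), shares of 8% and 12% beside 9.57% and 7.31% of all genes.

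**Figure D5:**
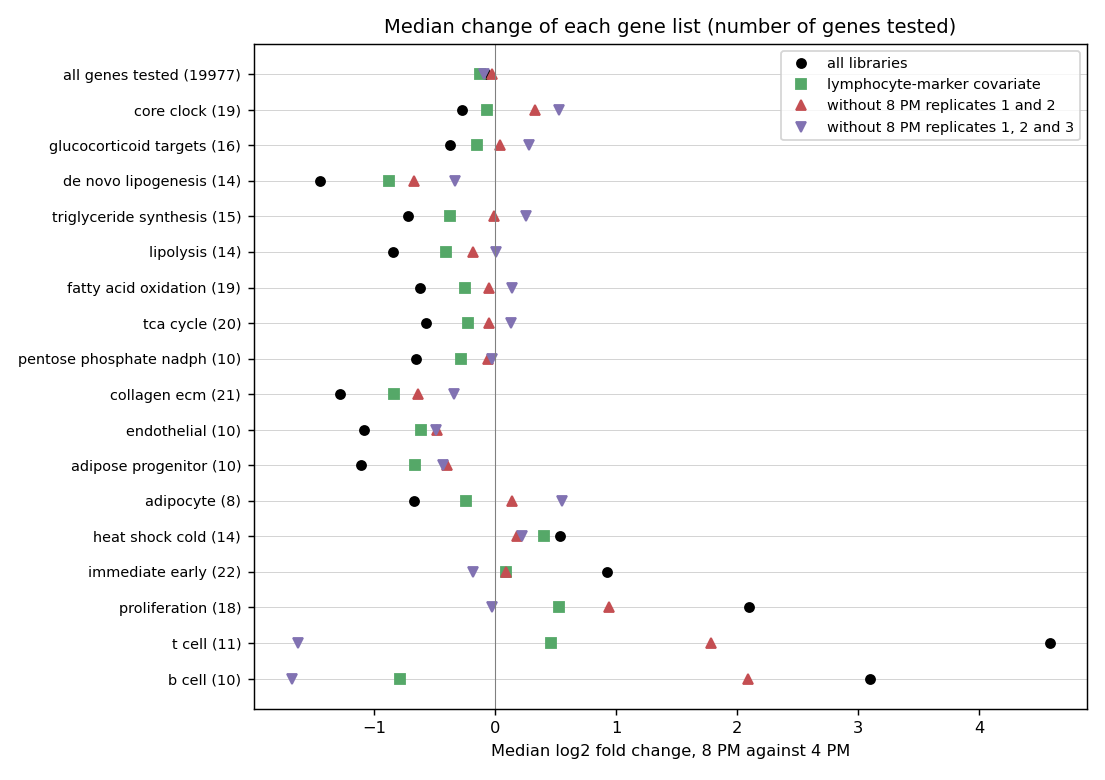
Median log2 fold change of each gene list (genes tested in brackets) at 8:00 p.m. against 4:00 p.m. in TAN mice, with all libraries (black), with the lymphocyte covariate (green), without 8 PM replicates 1 and 2 (red) and without 8 PM replicates 1, 2 and 3 (purple). Most medians move toward that of all genes when these 8 PM libraries are left out. Those of T-cell and B-cell markers go from 4.58 and 3.10 to -1.63 and -1.68 without 8 PM replicates 1, 2 and 3.

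Among matrix genes, most members were called lower with all libraries. The 21 collagen and matrix genes summed to 6140, 7508, 5282 and 4655 CPM at 4:00 p.m. and to 953, 725, 3158 and 4579 CPM at 8:00 p.m., and all 4 PM libraries lay above all 8 PM libraries (exact permutation p = 0.0286, two-sided, the smallest p possible). Of the 21 genes 13 were lower (61.9%) and 0 higher by edgeR, beside 7.31% and 9.57% of all genes, against 14 and 0 by DESeq2, 18 and 0 by limma voom and 16 and 0 with p unadjusted. The median log2 fold change of the list was -1.28, and edgeR called 1 lower with the covariate and none without 8 PM replicates 1 and 2, where 1 was lower with p unadjusted. That median was -0.84 with the covariate, -0.64 without 8 PM replicates 1 and 2 and -0.34 without replicates 1 to 3. Fbn1, the microfibril protein fibrillin, was at 41.8, 86.7, 66.6 and 52.6 CPM and then at 11.9, 8.02, 18.4 and 24.2 CPM, fell by 1.99 on the log2 scale (adjusted p = 0.00412) and had a fold change of -1.54 without 8 PM replicates 1 and 2 (adjusted p = 0.226). Lox, which crosslinks collagen, was at 221, 186, 153 and 130 CPM and then at 17.4, 15.3, 87.5 and 123 CPM, so that 8 PM replicate 4 nearly met the 4 PM range. The 10 endothelial markers summed to 693, 908, 554 and 789 CPM and then to 278, 229, 540 and 523 CPM (exact permutation p = 0.0286, two-sided), and 4 of the 10 were called lower, among them Kdr, a VEGF receptor (-1.38). Of 10 adipose progenitor genes 3 were lower, among them Cd34 (-1.28, and -0.77 without 8 PM replicates 1 and 2, adjusted p = 0.422), and 1 was higher, and their summed level did not pass (exact permutation p = 0.143, two-sided). These counts stood beside 7.31% lower and 9.57% higher of all genes, and with the covariate 1 endothelial and 2 progenitor genes were lower.

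T-cell and cell-cycle genes were called higher with all libraries. EdgeR and DESeq2 each called all 11 T-cell markers higher (beside 9.57% of all genes by edgeR), limma voom called none of them, and edgeR called 1 with the covariate. That covariate is the mean level of the T-cell and B-cell markers themselves, so it cannot test these markers. Cd3d was at 3.36, 0.05, 24 and 1.51 CPM at 4:00 p.m. and at 424, 442, 71.3 and 2.59 CPM at 8:00 p.m. (log2 fold change 5.01, adjusted p = 0.0173). Without 8 PM replicates 1 to 3 the change of Cd3d and of Cd8a turned, to -1.46 and -2.04 (adjusted p = 0.947 and 0.907). Of 10 B-cell markers edgeR called 1 higher, DESeq2 8 and limma voom none, and by edgeR 8 met the limits with p unadjusted. Cd79a and Cd79b were not called by edgeR, at log2 fold changes of 3.15 and 3.44 (adjusted p = 0.087 and 0.0582). Of 18 proliferation genes 13 were higher (72.2%, beside 9.57% of all genes), against 7 by limma voom and 1 with the covariate, with Birc5, an inhibitor of apoptosis in dividing cells, at 1.53, 0.54, 2.82 and 0.39 CPM and then at 18.5, 16.4, 9.94 and 3.44 CPM. The median of the proliferation list was 2.10, and it was 0.53 with the lymphocyte covariate and -0.02 without 8 PM replicates 1 to 3. Immediate early genes summed to 458, 584, 614 and 686 CPM at 4:00 p.m. and to 1340, 1499, 743 and 586 CPM at 8:00 p.m., and 9 of 22 were higher (40.9%, beside 9.57% of all genes), among them Klf2 (1.92), Socs3 (2.42) and Nr4a3 (4.12), while edgeR called 0 of them with the covariate, where 2 were higher and 1 lower with p unadjusted. The part of the lymph node RNA in the metabolic and matrix calls was not tested.

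Of the protein-folding genes, 3 of 14 heat shock and cold shock genes were higher (21.4%, beside 9.57% of all genes). With the covariate edgeR called none of the 14, and 1 was higher with p unadjusted. Dnajb1, an HSP40 co-chaperone, was at 34.3, 33.6, 43.8 and 39.9 CPM and then at 86.6, 94.8, 59.9 and 68.8 CPM, without overlap, and rose by a log2 fold change of 1.03 (SE 0.18, adjusted p = 0.000957). The fold change of Dnajb1 was 0.89 with the covariate and 0.76 without 8 PM replicates 1 and 2. Hsph1 and the cold-inducible Rbm3 rose by 1.33 and 1.31, both highest in 8 PM replicates 1 and 2, and Rbm3 was at 0.90 without these (adjusted p = 0.233). In the unfolded protein response list of 26 genes 2 were higher, including Manf (1.01), and Atf6, a sensor of that response, was lower (-1.15), with fold changes of 0.60 and -1.21 without 8 PM replicates 1 and 2. The shares of 7.69% higher and 3.85% lower were under those of all genes, 9.57% and 7.31%. The amino acid transporter Slc7a5 rose by 2.63, from 2.05 to 5.32 CPM at 4:00 p.m. to 32.0, 26.8, 17.5 and 8.90 CPM at 8:00 p.m., and its fold change was 1.94 without 8 PM replicates 1 and 2 (adjusted p = 0.207).

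The same step in ad-lib mice, which uses none of the 8 TAN libraries, gave 0 called genes of 19977 by edgeR (0%). T-cell markers summed to 477 to 877 CPM in the ad-lib 4 PM libraries and to 356 to 917 CPM in the ad-lib 8 PM libraries. These markers thus stood at similar levels on both ad-lib sides, unlike in the TAN step. The part of lymph node RNA in the difference between the counts was not tested. With p unadjusted 151 genes (0.756%) met the limits, and DESeq2 called 23 and limma voom 0. Cry1 had a log2 fold change of 0.87 there, Tsc22d3 of 0.72 and Fkbp5 of 0.86, against 1.99, 1.49 and 1.04 in TAN mice, Nr1d1 of -2.39 against -2.10, Clock of 0.35 against -1.5 and Angptl4 of -0.07 against -2.57. The difference between the steps, which shares the TAN libraries with the main comparison, passed for 7 genes (0.035% of those tested), 3 with a higher and 4 with a lower TAN step, and for 3441 (17.2%) with p unadjusted. The higher ones were Sap30, Sertad1, a regulator of cell-cycle transcription, and Mitd1, with differences of 2.39, 1.80 and 1.67 in log2 fold change (each adjusted p = 0.0307). The lower ones were Pcdhgb7 and the transcripts Gm44164, Far1os and Gm25082, of which all but Gm25082 were at their floor at 8:00 p.m. With the lymphocyte covariate 6 of these 7 were called, and without 8 PM replicates 1 and 2 none of them. The differences of Cry1 (1.12, adjusted p = 0.145) and Cry2 (-1.01, adjusted p = 0.24) did not pass.

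The step named 4 AM to 8 AM in TAN mice covers the groups that the published lists place at 4 PM and 8 PM, and so gives the other reading of the same clock times. It held 2 called genes (0.01%), 1 higher and 1 lower, of which the lower one was the methyltransferase gene Etfbkmt, with 24 by DESeq2 and 219 (1.1%) with p unadjusted. T-cell markers summed to 384.5 to 714 CPM in its 4 AM libraries and to 466 to 911 CPM in its 8 AM libraries. In that step Cry1 had a log2 fold change of 0.49, Tsc22d3 of -0.02, Fkbp5 of -1.08, Nr1d1 of 1.58 and Angptl4 of -1.21. The difference between the evening-named and morning-named steps passed for 35 genes (0.175%), 7 with a higher and 28 with a lower step in the libraries named 4 PM and 8 PM, and 3412 (17.1%) passed with p unadjusted. Of the 35, 30 were also called in the main comparison. Fkbp5 had a difference of 2.12 (SE 0.35, adjusted p = 0.00399), and Nr1d1 one of -3.67 (SE 0.76, adjusted p = 0.027). Grk5, a kinase of G-protein coupled receptors, and Etfbkmt differed by -1.81 and 1.81 (adjusted p = 0.00506 and 0.0161). With the covariate 23 of the 35 were called, without 8 PM replicates 1 and 2 there were 4 of them (Gm44164, Fkbp5, Grk5 and Etfbkmt), and without replicates 1 to 3 Fkbp5 and Etfbkmt.

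Gene length also differed between the sides. The deposited gene length had a median of 3445 bases over all genes tested, 2890 over the genes called higher and 4615 over those called lower. The shortest 25% of genes took 20.7%, 17.8%, 22.7% and 19.1% of the counts at 4:00 p.m. and 28.1%, 27.5%, 24.4% and 23.3% at 8:00 p.m., with all 8 PM libraries above all 4 PM libraries. Malat1, an RNA kept in the nucleus, was at 133, 631, 87.6 and 771 CPM at 4:00 p.m. and at 98.3, 101, 59.0 and 124 CPM at 8:00 p.m., and the mitochondrially encoded mt-Nd5 was at 1626, 3103, 752 and 5263 CPM and then at 520, 427, 489 and 1159 CPM. Thus 4 PM replicates 2 and 4 were the highest in both, and the sides overlapped in both. The mitochondrially encoded share of counts did not pass (exact permutation p = 0.6, two-sided). The part of these measures in the calls was not tested.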

How the data were processed

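Bulk RNA-seq of sWAT was analysed in the 8 TAN libraries named 4 PM and 8 PM, within a table of 48 libraries. Poly-A RNA was read in pairs on an Illumina instrument. The authors deposited raw counts per gene, not normalized, beside FPKM values that are their means per diet and time. The submitters' processing notes name TopHat 1.3.3, DESeq2 1.20.0, limma and edgeR and the builds mm9, mm10 and GRCm38; the counting tool and whether it used strand are not given in the sources used here. Groups came from the sample labels, 0 columns of sample values were left unused, and libraries matched their group mean of the deposited FPKM under the count-table names in all 12 groups.

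Counts were tested with edgeR 4.0.16 in R 4.3.3, with TMM scaling, filterByExpr at a minimum count of 10 (19977 of 54532 genes) and 1 robust quasi-likelihood fit of 12 groups. Calls needed a Benjamini-Hochberg adjusted p under 0.05 with a log2 fold change past 1. Where a side had no more than 3 counts in every library, no fitted fold is given. Marker sums were compared by exact permutation tests. Named genes were, in each direction, the 12 called genes of largest fold change and the 8 with the lowest p (protein-coding, sides not overlapping, at least 10 counts in every library of the higher side), all clock genes, and up to 4 of each list. The members and gene lists were chosen with earlier results of these data known. Total counts of 19213494 to 25440243 limit the precision of low genes. Alternatives were DESeq2 1.42.0, voom of limma 3.58.1, RLE scaling, other filters, a replicate block, smaller sets of libraries, leaving out libraries, and covariates for lymphocyte markers and for the share of counts on TEC loci (a class of transcripts still to be tested by experiment). Counts of 19977 genes were simulated for TAN 8 PM against 4 PM. From these edgeR recovered 32 of 100 genes changed by a log2 fold change of 1.5. It recovered 69 of 100 changed by 3, with 0 false calls. The simulated libraries varied independently gene by gene, without the differences in lymph node and adipocyte markers seen here. The simulation therefore cannot give the rate of false calls in these data. A few genes are not reported here. Promoter windows came from RefSeq on GRCm38.p6.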

Additional observations from a re-analysis of the deposited data

Results flagged for a closer look

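A library was set apart where its gap to the nearest library of its group of 4, divided by the range of the group, was above Dixon's critical value for 4 samples. Of 210 groups tested 15 held such a library (7.14%). These groups share libraries, and the marker sums contain some of the genes, so the share cannot be set against the 5% level of the test. In the 4 PM group, replicate 3 was far above the others in Cd3d (24 CPM), Cd8a (36.6), Cd79a (52.3), Cd79b (58.4), Ccl21a (3.33) and Epcam (0.416), in the summed T-cell (192 CPM), B-cell (248) and lymph node stroma markers (56.5), and in the share of counts on T-cell receptor genes (0.0129%), and it was far below them in Zeb2 (138 CPM). Replicate 2 of the same group was alone in having counts of Osm (0.324 CPM). At 8:00 p.m., replicate 4 was far above the others in Ap4m1 (18.9 CPM) and mt-Nd5 (1159 CPM), and replicate 2 in Epcam (10.7 CPM).

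Steps that differed by a test of the difference itself were the following. Between TAN and ad-lib mice, the step differed in log2 fold change by 2.39 for Sap30, 1.80 for Sertad1 and 1.67 for Mitd1, and for Pcdhgb7, which had 0 counts at 8:00 p.m. in TAN mice, with an adjusted p of 0.0307 by edgeR. None of these differences was called without 8 PM replicates 1 and 2. Between the evening-named and morning-named TAN steps, it differed by 2.12 for Fkbp5, -1.81 for Grk5, 1.81 for Etfbkmt, 1.69 for Mitd1, 5.08 for Ankrd37, -3.37 for Adamts5, -2.27 for Zeb2, -3.67 for Nr1d1 and -1.28 for Mia2. For genes at their floor the adjusted p was 0.0249 for Pcdhgb7, 0.0324 for Arhgef16, 0.0468 for Npas2 and 0.0474 for Mmp13. Of these, Fkbp5, Grk5 and Etfbkmt were also called without 8 PM replicates 1 and 2.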

How the results depend on the processing

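Genes called in TAN at 8:00 p.m. against 4:00 p.m., higher and lower, numbered 1020 and 2454 by limma voom, 0 and 0 with the 8 libraries alone, 111 and 363 with the lymphocyte covariate, 129 and 232 with that and the TEC covariate, 3 and 7 without 8 PM replicates 1 and 2, 2 and 3 without replicates 1 to 3, and 2 and 1 when 4 PM replicate 3 was left out too. The lower ones were 719 with at least 10 counts in every library and 2455 at an unadjusted p. The covariates and the sets of libraries left out were chosen after the data were seen. Leaving out 1 TAN library at a time gave 637 to 2807 higher and 475 to 3250 lower genes. Same-numbered libraries had residual correlations of -0.229, -0.0731, 0.0918 and 0.278 over 5000 genes, so the numbers were not used to pair them; the replicate block gave 1275 and 1394. The difference between the TAN and ad-lib steps passed for 0 genes without a filter, under the block, with its own libraries alone and in all 3 sets of libraries left out, 3 with the stricter filter, 528 by DESeq2, 86 by voom, 3441 at an unadjusted p, 16, 41 and 15 with the lymphocyte, TEC and both covariates, and 0 to 2663 leaving out 1 library. That between the evening-named and morning-named TAN steps passed for 18 genes without a filter, 841 by DESeq2, 247 by voom, 11 in the 24 TAN libraries, 0 with its own libraries, 3412 at an unadjusted p, 7, 6 and 4 in the sets left out, and 4 to 2396 leaving out 1 library. Both were highest without 8 PM replicate 4. The ad-lib step had 23 by DESeq2, 1 with its own libraries and 151 at an unadjusted p. The TAN step from 4 AM to 8 AM had 0 without a filter and in the 24 TAN libraries, 24 by DESeq2, 1 by voom, 119 with its own libraries, 219 at an unadjusted p, and 7, 5 and 9 with the covariates. Without 8 PM replicates 1 to 3 the log2 fold changes of Cd3d, Cd8a, Cxcl13 and Tbc1d4 turned to -1.46, -2.04, -0.16 and -0.0794, and that of Tbc1d4 to -0.14 without 4 PM replicate 3 too. The difference in summed mast markers turned to 19.2, 2.51 and 2.74 CPM without 4 PM replicate 3, 8 PM replicate 1 or 2 (lowest -81.9), of muscle markers to -3.36 without 8 PM replicate 3 (highest 204), of erythrocyte markers to 22.3 and 86.3 without 4 PM replicate 3 or 8 PM replicate 2 (lowest -104), of Schwann cell markers to 61.9 and 55.5 without 8 PM replicate 1 or 2 (lowest -249), and of the mitochondrial share to 0.109% without 4 PM replicate 4 (lowest -1.11%). The differences in T-cell, B-cell and stromal marker sums ran from 981 to 1884, 486 to 801 and 137 to 249 CPM leaving out 1 library, highest without 8 PM replicate 4, and that in the TEC share from -0.034% to -0.0167%. The cause of these changes was not tested. Of 1988 values of 87 named genes, 1463 kept direction and side of the threshold, 430 lost the call, 19 gained it, 71 moved and 5 turned.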
